A study of Sus scrofa with 3 samples.

Results

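The liver microRNA (miRNA) profile of a Chinese wild boar was compared with those of both domestic pigs of the study, and 20 miRNAs stood apart from both. A miRNA was taken where its level in the wild boar library was at least 2-fold above, or at least 2-fold below, its level in each of the other libraries, with both exact 95% intervals leaving out a ratio of 1. Of 405 miRNAs in the deposited counts, 207 had a mean of at least 10 CPM and were compared, and 10 were higher and 10 lower in the wild boar library than in both. CPM are counts per 1000000 of a library's total after scaling by trimmed mean of M-values (TMM). The same levels chose these miRNAs, so all values below describe them and none is a test.

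Liver of male pigs was sampled at postnatal day 90 from an Enshi black pig, which is a Chinese domestic breed, a Large White pig, which is a European commercial breed, and a Chinese wild boar. Each breed had 1 library, and the protocol speaks of 3 pigs and 3 liver samples in all, which leaves no measure of the spread between animals of a breed. Intervals cover counting error only. Library totals were 7730934 counts for Enshi black, 7343033 for Large White and 7824836 for the wild boar, and the limits that 0 counts allow were 0.323, 0.529 and 0.356 CPM. miR-122, the miRNA that marks hepatocytes, took between 34.2% and 41.4% of the counts in the 3 libraries, so the labelled tissue carried its defining miRNA in each.

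A miRNA is cut from a hairpin precursor that can yield a product from its 5′ arm (5p) and one from its 3′ arm (3p). The mature strand guides a silencing complex to messenger RNAs that pair with its seed, and lowers their stability and translation. In whole liver, hepatocyte miRNAs such as miR-122 dominate, while miRNAs of blood, endothelial, stellate and nerve cells are read in proportion to the RNA those cells contribute. In such bulk tissue, fewer cells of a type and less miRNA per cell cannot be told apart.

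The wild boar library was the highest of the 3 for 69 of the 207 miRNAs, the lowest for 70 and in between for 68, counting any size of difference. With both intervals past 1 at any fold, 54 lay above both domestic libraries (26.1% of those compared) and 59 below both (28.5%). Past 2-fold, 13 miRNAs were higher and 13 lower than in Enshi black (6.28% each), and 23 were higher and 28 lower than in Large White (11.1% and 13.5%). Both pairs were passed on the same side by 10 higher and 10 lower miRNAs, 4.83% of the 207 each. A further 16 were higher and 21 lower in 1 pair alone, and none was called to opposite sides. The pairs share the wild boar library, so a count in 1 pair is not independent of the other. Under the same rule the Enshi black library stood 2-fold above both others for 1 miRNA (0.483%) and below both for 3 (1.45%), and the Large White library above both for 12 (5.8%) and below both for 3 (1.45%). These counts hold for TMM scaling and the 2-fold threshold, and no test of a difference between them is possible. Of the 20 miRNAs, miR-184 and miR-299 were under 10 CPM in both domestic libraries, and miR-1468 and miR-20b in the wild boar library, so these 4 reached the minimum only through the libraries in which they were high.

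**Figure D1:**
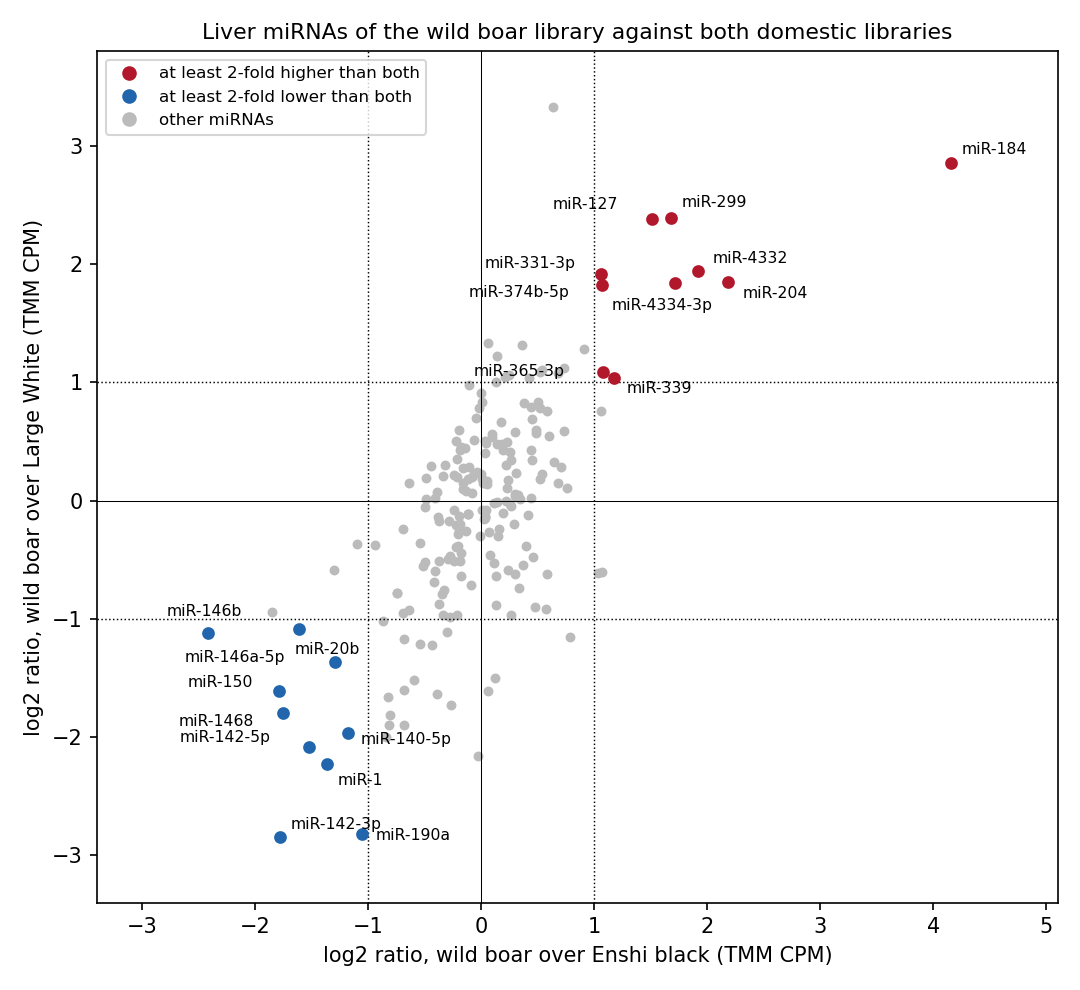
Each point is 1 of 207 liver miRNAs, plotted by its log2 ratio of wild boar over Enshi black (horizontal axis) and of wild boar over Large White (vertical axis), both in TMM-scaled CPM; dotted lines mark 2-fold. The 10 red points lie past 2-fold above both domestic libraries and the 10 blue points past 2-fold below both; both axes share the wild boar library.

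miRNAs of blood and immune cells made up 5 of the 10 on the low side, and the leucocyte list holds 11 of the 207 compared. Of these 11, 5 were lower in the wild boar library than in both others and none was higher, beside 4.83% on each side over all 207. These 5 were chosen by these same levels and include both arms of miR-142, so nothing is read from that count. miR-142-3p, made in blood-forming cells, stood at 8054 CPM in Enshi black, 16873 CPM in Large White and 2346 CPM in the wild boar, on 74824, 95697 and 19777 counts. The wild boar level was the lowest, with the domestic libraries 3.43-fold (3.38 to 3.49) and 7.19-fold (7.08 to 7.30) above it. By rank among all miRNAs of a library, which no scaling can change, miR-142-3p was the 19th most abundant in Enshi black and the 11th in Large White, and the 41st in the wild boar. Its partner from the same precursor, miR-142-5p, stood at 1777, 2613 and 618 CPM in the same order, which is 2.88-fold (2.79 to 2.97) and 4.23-fold (4.10 to 4.37) above the wild boar level. As both arms come from 1 hairpin, they do not count as separate observations.

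miR-150, a miRNA of mature lymphocytes, had 314 CPM in Enshi black, 278 CPM in Large White and 91.0 CPM in the wild boar, with the domestic libraries close together and the wild boar library about 3-fold under both (3.45-fold, 3.19 to 3.74, and 3.06-fold, 2.80 to 3.34). miR-146a-5p and miR-146b are induced by NF-kB and damp Toll-like receptor signalling. The domestic levels of miR-146a-5p were alike at 169 and 177 CPM, while the wild boar library had 68.8 CPM. Those of miR-146b were further apart, at 152 CPM in Enshi black and 61.7 CPM in Large White, with 28.5 CPM in the wild boar, so its 2-fold distance from Large White (2.17-fold, 1.83 to 2.57) was the narrower one. Both miR-146 names hold fractions of reads shared with another name, and their split rests on the authors' counting. Scaled to the library total instead, the log2 ratio over Large White was −0.88 for miR-146a-5p and −0.64 for miR-146b, under 2-fold, while miR-142-3p, miR-142-5p and miR-150 stayed past 2-fold in both pairs.

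The remaining 6 leucocyte list members did not pass both pairs. miR-21, the most abundant of the list and also expressed in many other cell types, was lowest in the wild boar, at 39895 CPM in Enshi black, 55713 CPM in Large White and 24793 CPM in the wild boar, with log2 ratios of −0.69 and −1.17. miR-155-5p, induced in activated lymphocytes and macrophages, stood at 562 CPM in Enshi black, 866 CPM in Large White and 527 CPM in the wild boar, again the lowest. miR-342 had 458, 503 and 496 CPM, and miR-181a had 8248, 5866 and 9328 CPM. The wild boar library was thus lowest for 7 of the 11 and highest for 1, miR-181a. The median log2 ratio of the 11 was −0.69 over Enshi black and −1.12 over Large White (−0.84 and −0.64 on library totals), beside medians of 0.01 and −0.02 over all 207. The 11 include the 5 chosen by their low levels, so these medians are description only. Of 7 marker miRNAs listed for leucocytes, 6 were matched, both arms of miR-142 among them, and miR-223 was not. None of the 6 was at 0, and all 6 were lowest in the wild boar library. However, 5 of them were chosen by these same levels, so nothing is read from that count. For miR-155-5p the log2 ratio over Enshi black was only −0.09. Together the 6 held 1.33% of the counts in Enshi black, 1.61% in Large White and 0.396% in the wild boar. Most of it was miR-142, whose arms are among those chosen.

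No red cell, endothelial, smooth muscle, stellate or hepatocyte marker passed 2-fold on the same side of both domestic libraries, beside 4.83% on each side over all 207. With so few markers of each type, nothing is read from that. The 3 red cell markers (miR-144, miR-451 and miR-486) summed to 4114 CPM in Enshi black, 5324 CPM in Large White and 3114 CPM in the wild boar, none of them at 0. Their sum was thus lowest in the wild boar, as were miR-144 and miR-451, while miR-486 lay between the domestic libraries. The 2 endothelial markers, both arms of miR-126, summed to 16284, 10080 and 12169 CPM, and the 4 smooth muscle and stellate markers to 42462, 31563 and 34011 CPM, with the wild boar between the domestic libraries in both cases. Hepatocyte markers (miR-122, miR-192, miR-194a and miR-885-5p) summed to 341596 CPM in Enshi black, 657125 CPM in Large White and 439702 CPM in the wild boar, again in between. Whether the lower sum of the leucocyte marker miRNAs reflects fewer such cells was not tested. Nor was any link of that sum to the other differences of the wild boar library.

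**Figure D2:**
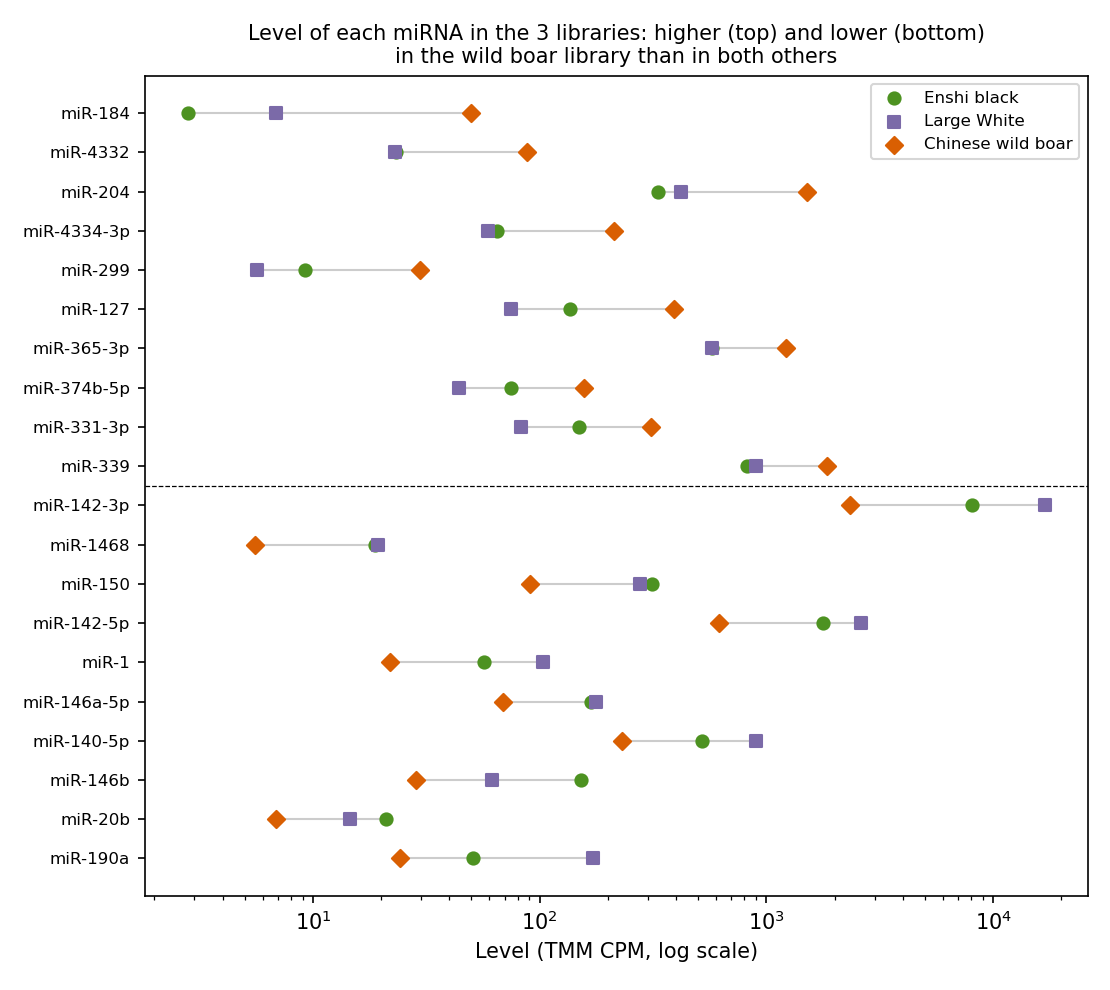
Level of the 20 miRNAs in each library, in TMM-scaled CPM on a log axis, with the 10 higher in the wild boar library above the dashed line and the 10 lower ones below it. The wild boar symbol is at the end of every line, from miR-1468 at 5.57 CPM to miR-142-3p at 2346 CPM on the low side; where the domestic libraries coincide, as for miR-365-3p, the Large White symbol covers the other.

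The other 5 miRNAs on the low side were miR-1, miR-140-5p, miR-190a, miR-20b and miR-1468. miR-1 is specific to heart and skeletal muscle and was scarce in all libraries, with 56.6 CPM in Enshi black, 103 CPM in Large White and 21.9 CPM in the wild boar. It holds shared reads. It was the 1 of 3 striated muscle miRNAs compared that passed both pairs, beside 4.83% of all 207 on the low side. miR-133a-3p, which is made from the same transcripts as miR-1 in muscle, had 19.7, 28.6 and 20.8 CPM, and miR-499-5p 152, 257 and 131 CPM. Of 6 striated muscle markers listed, all were in the counts, miR-208b was at 0 in every library, and the sums were 230, 395 and 176 CPM.

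miR-140-5p, best known from cartilage and lying within the span of WWP2 in RefSeq, had 522 CPM in Enshi black, 900 CPM in Large White and 230 CPM in the wild boar, so that the domestic levels were 2.27-fold (2.15 to 2.39) and 3.91-fold (3.71 to 4.13) higher. miR-190a, within TLN2, differed most between the domestic libraries, at 50.7 CPM in Enshi black and 171 CPM in Large White, with 24.3 CPM in the wild boar. Its distance from Enshi black was 2.09-fold (1.77 to 2.47), the nearest to the threshold on the low side. miR-1468 rested on few counts, with 175 in Enshi black, 110 in Large White and 47 in the wild boar. On the CPM scale these were 18.8, 19.4 and 5.57, alike in the domestic libraries and 3.38-fold (2.44 to 4.77) and 3.48-fold (2.45 to 5.01) lower in the wild boar.

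miR-20b, a member of the miR-106a-363 cluster and a relative of miR-17, was counted 196 times in Enshi black, 83 times in Large White and 58 times in the wild boar, or 21.1, 14.6 and 6.88 CPM. It holds shared reads, and on library totals its log2 ratio over Large White was −0.61, under 2-fold. Of its neighbours within 10 kb in RefSeq, miR-106a was low in all libraries and lowest in the wild boar (47, 26 and 17 counts), and miR-363 stood at 156 CPM in Enshi black, 94.7 CPM in Large White and 63.1 CPM in the wild boar. For miR-18b, on 33, 8 and 18 counts in the same order, the wild boar lay between the domestic libraries. miR-19b had 6562, 9308 and 5066 CPM. miR-92a, which other precursors also yield, was instead highest in the wild boar at 7451 CPM, against 5258 CPM in Enshi black and 4166 CPM in Large White. The neighbouring precursors of miR-19b and miR-363 are likewise numbered copies, so the summed levels of these names may also include other precursors. Across the miR-17-92 cluster and its paralogs, miR-20b was the 1 of 10 compared that passed both pairs, beside 4.83% of all 207 on the low side. With so few members, nothing is read from that count.

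On the high side, the greatest distance was that of miR-184, a miRNA of the eye, nervous tissue and pancreatic beta cells. It was counted 26 times in Enshi black, 39 times in Large White and 421 times in the wild boar, or 2.80, 6.88 and 49.9 CPM. The wild boar level was 17.8-fold (12.0 to 27.6) above Enshi black and 7.26-fold (5.22 to 10.4) above Large White, and miR-184 was the 1 miRNA past 4-fold in both pairs. It was below 10 CPM in both domestic libraries and reached the minimum through the wild boar library. By rank it was the 244th miRNA in Enshi black, the 220th in Large White and the 155th in the wild boar.

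miR-204 lies within TRPM3 and is known from the retinal pigment epithelium and from beta cells, where it restrains insulin production. It was more abundant, with 334 CPM in Enshi black, 420 CPM in Large White and 1516 CPM in the wild boar, on 3100, 2381 and 12782 counts. The domestic levels were close to each other, and the wild boar level was 4.54-fold (4.37 to 4.73) and 3.61-fold (3.46 to 3.77) above them. Its rank was 93rd and 91st in Enshi black and Large White and 51st in the wild boar. Of 4 neural and endocrine miRNAs compared, miR-184 and miR-204 were higher than both, beside 4.83% of all 207, but miR-184 is among the 4 only through its wild boar level. The others were miR-9, a neural miRNA, with 59.2, 61.5 and 89.7 CPM, and miR-7, of endocrine and nerve cells, with 288, 580 and 165 CPM and hence lowest in the wild boar.

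The imprinted DLK1-DIO3 region encodes a large set of miRNAs that are expressed from the maternal chromosome, mainly in the embryo, placenta and brain. Of 5 compared, miR-127 and miR-299 were higher in the wild boar library than in both others and none was lower, beside 4.83% of all 207 on each side. miR-299 is among the 5 only through its wild boar level, so nothing is read from that count. miR-127, which lies opposite RTL1, had 137 CPM in Enshi black, 74.8 CPM in Large White and 390 CPM in the wild boar, 2.86-fold (2.68 to 3.05) and 5.22-fold (4.71 to 5.79) above the domestic libraries. miR-299 rested on 86, 32 and 250 counts, or 9.26, 5.64 and 29.7 CPM. For both miRNAs the order was the same, with Large White lowest, Enshi black next and the wild boar highest. miR-369 fell just short, at 12.6, 9.70 and 23.6 CPM, and miR-758 had 20.6, 3.17 and 31.9 CPM.

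A neighbour of miR-127 within 10 kb went the other way: miR-136 had 34.4 CPM in Enshi black, 53.2 CPM in Large White and 27.2 CPM in the wild boar, the lowest of the 3. Of 17 members of the region with any count, those below 10 CPM included, the wild boar library had the highest CPM for 15 and the lowest for 1, miR-136, whereas over all 317 miRNAs with a count it was highest for 33.8% and lowest for 31.9%. These members lie in 1 cluster, and the 15 include miR-127 and miR-299, which were chosen by these same levels. Many have few counts, such as miR-487b with 2 in Enshi black, 0 in Large White and 2 in the wild boar. Nothing is therefore read from the 15 of 17. Summed over the list, the region held 0.0298% of the counts in Enshi black, 0.0130% in Large White and 0.0605% in the wild boar.

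miR-4332 and miR-4334-3p are high-numbered entries for which no function is given here. On the TMM scale, domestic levels were alike for both. miR-4332 had 23.3 CPM in Enshi black, 22.9 CPM in Large White and 88.0 CPM in the wild boar, 3.79-fold (3.25 to 4.43) and 3.84-fold (3.18 to 4.66) higher. miR-4334-3p, whose precursor lies within DNPEP, had 65.0, 59.2 and 213 CPM, and no read of its other arm was counted in any library. It holds reads shared with another name.

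The remaining 4 on the high side lay near the threshold in at least 1 pair. miR-365-3p, one of 11 liver-enriched miRNAs compared and the only one of them past 2-fold on the same side of both (4.83% of all 207 were on the high side), had 576 CPM in Enshi black, 573 CPM in Large White and 1217 CPM in the wild boar. Its distances were 2.11-fold (2.04 to 2.18) and 2.12-fold (2.04 to 2.21). miR-339 was the most abundant of the high side, at 820, 903 and 1850 CPM, and the closest to the threshold over Large White, at 2.05-fold (1.99 to 2.12), and it holds shared reads. miR-331-3p, within VEZT, had 149 CPM in Enshi black, 82.3 CPM in Large White and 311 CPM in the wild boar. miR-374b-5p, which also holds shared reads, had 74.7, 44.1 and 157 CPM in the same order. On library totals miR-365-3p, miR-331-3p and miR-374b-5p had log2 ratios over Enshi black of 0.92, 0.90 and 0.91, under 2-fold, and miR-339 kept 1.02.

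The smaller of the 2 log2 ratios, which decides whether a miRNA is counted, was 1.04 for miR-339, 1.06 for miR-331-3p and 1.07 for miR-374b-5p just inside the threshold on the high side. Just outside were miR-369 at 0.91, miR-497 at 0.76 and miR-9851-3p at 0.74. On the low side, miR-190a (−1.06), miR-20b (−1.09) and miR-146b (−1.12) were just inside. Outside lay miR-708-5p at −0.94, miR-151-3p at −0.87 and miR-29b at −0.84. miR-29b, which represses collagen genes, stood at 1785 CPM in Enshi black, 3980 CPM in Large White and 998 CPM in the wild boar. Its relative miR-29c had 2736, 2806 and 1630 CPM, while miR-29a, the most abundant of that family, was level at 23666, 25127 and 23727 CPM.

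**Figure D3:**
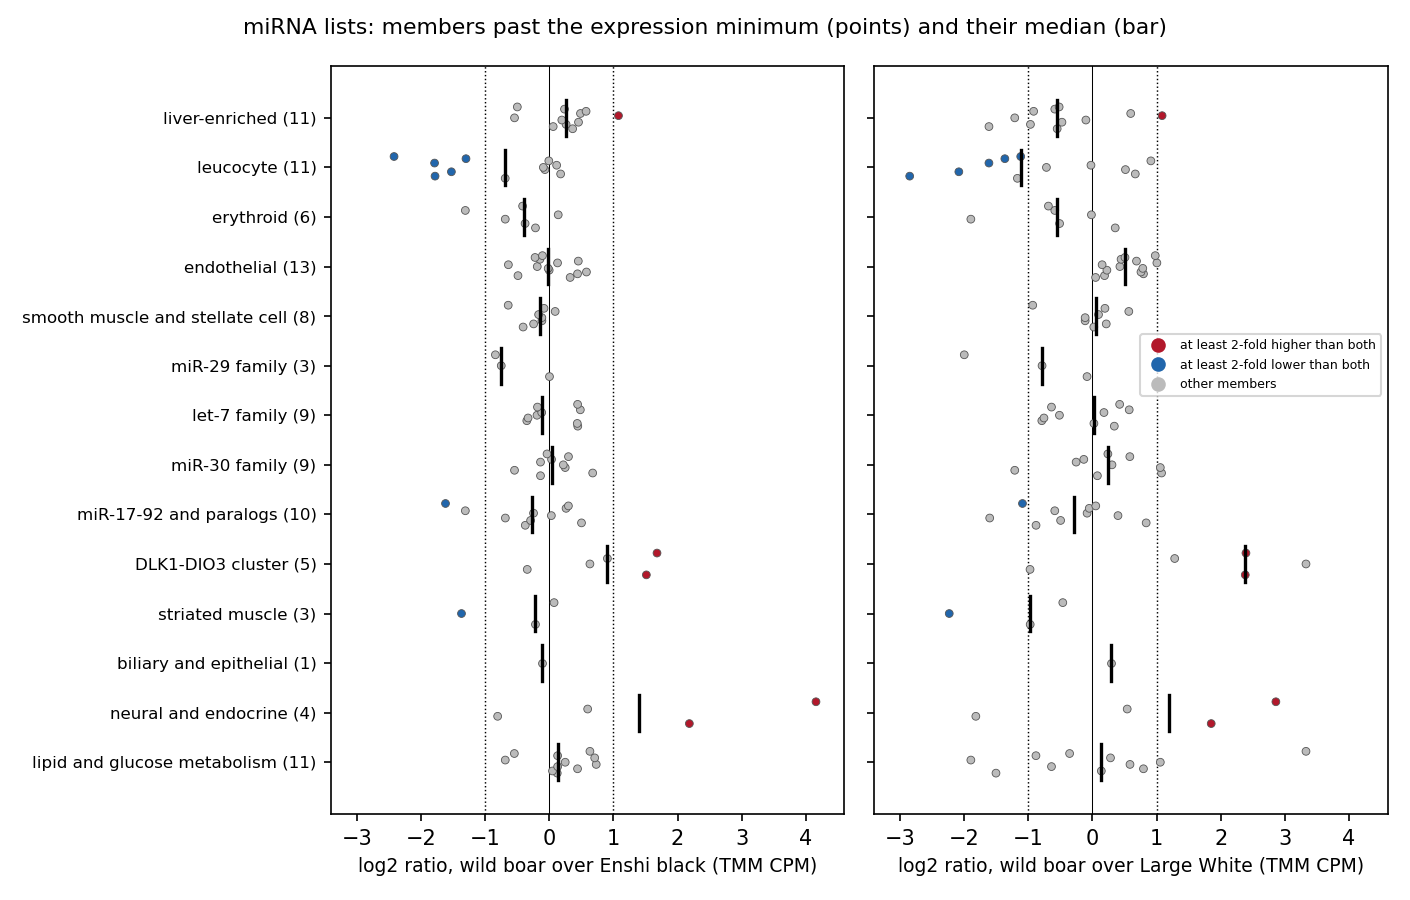
Log2 ratios of wild boar over Enshi black (left) and over Large White (right), in TMM-scaled CPM, for the members of 14 miRNA lists past the expression minimum, with the number of members in brackets and the median as a bar; some miRNAs are in more than 1 list. Red and blue points passed 2-fold on the same side of both libraries: 5 blue points in the leucocyte list, 2 red ones each in the DLK1-DIO3 and the neural and endocrine lists, and at most 1 in any other.

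In the other lists few or no members lay past 2-fold on the same side of both domestic libraries. None of 13 endothelial, 8 smooth muscle and stellate cell, 9 let-7, 9 miR-30, 6 erythroid, 3 miR-29, or 11 lipid and glucose miRNAs did so. Over all 207, 4.83% did so on each side, and with lists this short nothing is read from their absence. Endothelial miRNAs had a median log2 ratio of −0.02 over Enshi black and 0.51 over Large White (−0.17 and 0.99 on library totals). Over Enshi black their members lay on either side of 0, from −0.64 for miR-10a-5p to 0.58 for miR-221-3p. The liver-enriched list had medians of 0.26 over Enshi black and −0.55 over Large White, which were 0.11 and −0.07 on library totals. miR-30d, a member of the abundant miR-30 family, was highest in the wild boar at 8465 CPM, against 5294 CPM in Enshi black and 4008 CPM in Large White. In the let-7 family the wild boar library was highest for 4 of 9 members and lowest for 4. let-7a was highest there at 34049 CPM, against 25016 and 26858 CPM, and let-7f lowest at 9426 CPM, against 12010 and 16270 CPM, but let-7 counts include shared reads.

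The arms of a precursor can be compared within a library, without any scaling between libraries. At 52 precursors both arms had at least 10 counts in every library, and at 17 of them (32.7%) the share of reads on 1 arm in the wild boar library lay outside both domestic shares with exact intervals apart. All 5 such precursors of the miRNAs above were among the 17, but their reads are those by which they were chosen, so nothing is read from that count. miR-140-5p took 12.3% of the reads of its precursor in Enshi black (exact Clopper-Pearson interval 12.0 to 12.6), 16.8% in Large White (16.3 to 17.2) and 6.53% in the wild boar (6.26 to 6.82). Its other arm, miR-140-3p, was similar across libraries at 3719, 4470 and 3288 CPM. The low wild boar value was thus on the 5p arm, with the 3p arm under 2-fold from either domestic library.

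At the precursor of miR-374b the arms lay on opposite sides. The 5p arm was highest in the wild boar library, while miR-374b-3p, below the minimum, had 46 counts in Enshi black, 50 in Large White and 18 in the wild boar. The 5p share was therefore 93.8% (91.8 to 95.4), 83.3% (78.6 to 87.4) and 98.7% (97.9 to 99.2). The 3p share of miR-331 was 74.0% (72.0 to 76.0) in Enshi black, 70.8% (67.1 to 74.2) in Large White and 81.6% (80.3 to 83.0) in the wild boar. miR-331-5p itself was also highest in the wild boar, with 590 counts against 486 in Enshi black and 193 in Large White. For miR-142 both arms were low in the wild boar, and the 3p share was 81.9%, 86.6% and 79.2%. At the first of the miR-339 precursors, miR-339-3p was level at 14.6, 14.5 and 12.6 CPM while the partner arm was higher in the wild boar.

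**Figure D4:**
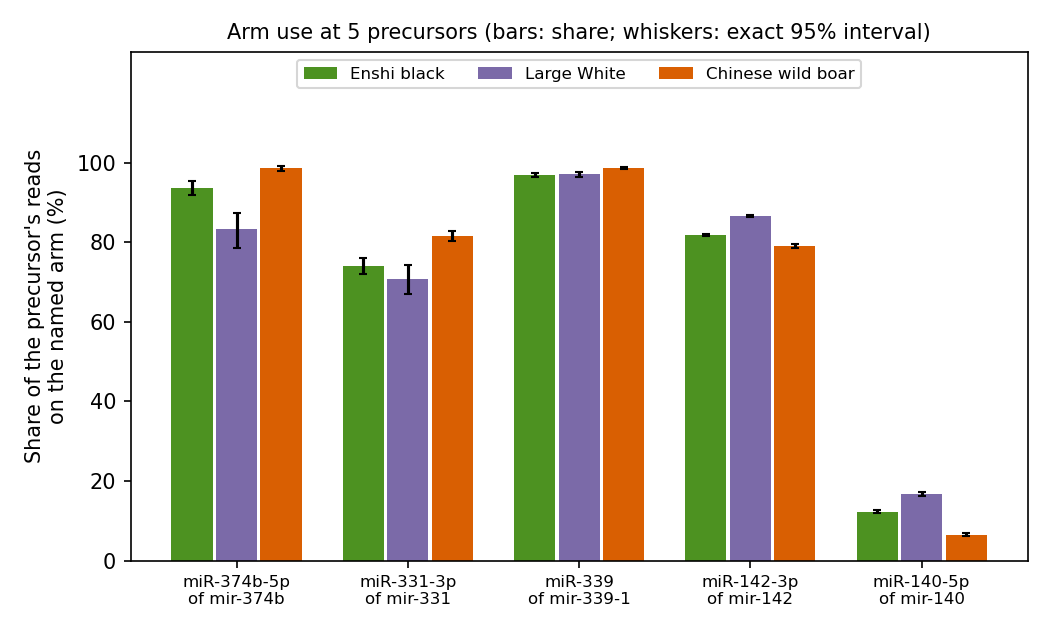
Share of a precursor's reads on the named arm, in percent, for the 5 precursors of the 20 miRNAs with at least 10 counts on both arms in each library; whiskers are exact 95% intervals for counting error. The wild boar bar is lowest for miR-140-5p, at 6.53%, and highest for miR-374b-5p, at 98.7%, and for miR-331-3p, at 81.6%.

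How libraries are scaled moved all ratios of a pair together. On library totals every log2 ratio of wild boar over Enshi black fell by 0.16 and every ratio over Large White was 0.48 higher, with medians over all 207 of −0.15 and 0.46. Alike or close domestic levels, as for miR-150, miR-146a-5p, miR-1468, miR-204, miR-365-3p, miR-4332 and miR-4334-3p, are meant on the TMM scale. For miR-4332 the log2 ratios over Enshi black and Large White were 1.92 and 1.94 with TMM, and 1.76 and 2.42 on library totals. For miR-150 they were −1.79 and −1.61 with TMM, and −1.94 and −1.13 on library totals. Of the 10 miRNAs on each side, 7 stayed past 2-fold in both pairs under all 4 scalings tried. On the high side these were miR-184, miR-204, miR-4332, miR-4334-3p, miR-127, miR-299 and miR-339, and on the low side miR-142-3p, miR-142-5p, miR-150, miR-1, miR-140-5p, miR-190a and miR-1468. None of the 20 changed direction in either pair. The 10 high miRNAs together held 0.263% of all counts in Enshi black, 0.169% in Large White and 0.627% in the wild boar, and the 10 low ones 1.34%, 1.64% and 0.371%.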

How the data were processed

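Small RNA of 14 to 40 nucleotides from liver was sequenced as single-end reads of 50 bases, per the labels' protocols. Sscrofa 10.2 is the build that the submitters' processing notes name. The aligner, counter and annotation were not given in the sources used here.

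Each deposited file holds expected counts per mature miRNA and precursor, per the file headers, with fractions where reads match several names. The deposited RPM values are these counts divided by the library sum, and were not used for comparisons. Counts were summed per miRNA and rounded. Rows of 6 names that repeat another name's reads were left out. miR-129b was kept, although its counts equal those of miR-129a-5p (45 in Enshi black, 36 in Large White and 72 in the wild boar). Both lie below the minimum. Of the 207 miRNAs compared, 65 hold shared reads: their sums lie over 0.05 away from whole numbers.

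TMM factors from edgeR 4.0.16 (R 4.3.3) were 1.20 for Enshi black, 0.772 for Large White and 1.08 for the wild boar. TMM rests on most miRNAs being equal between libraries. Ratios have exact conditional-binomial 95% intervals (scipy 1.17.1). Without molecular identifiers, these intervals and the limit of 3 counts used where none was seen describe counting error alone. No p-value was computed, with 1 library per breed. The calling rule was tried on simulated counts with counting error only, scaled by library totals. That trial covers neither TMM scaling nor the spread between animals.

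The miRNAs named are all those past 2-fold on the same side of both, the 3 on either side of the threshold, other arms, neighbours within 10 kb and members of lists. The miRNAs and lists were chosen with earlier results of these data known. Where a list gives no arm, the more abundant one was used. Of 23 precursors of the 20 miRNAs, 19 matched RefSeq (Sscrofa 11.1, used for gene names and neighbours only). DESeq2 1.42.0 size factors, library totals with and without miR-122, other filters and thresholds, thinning to the smallest library, and keeping or leaving out shared or repeated names were the alternatives.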

Additional observations from a re-analysis of the deposited data

How the results depend on the processing

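Beside the 10 higher and 10 lower miRNAs, no filter on low counts gave 20 higher and 13 lower among 317, and a minimum of 100 CPM gave 6 and 5 among 129. A 4-fold threshold left 1 higher (miR-184) and 0 lower, and a 1.5-fold threshold gave 16 and 25. Leaving out miRNAs with shared reads gave 7 higher and 6 lower among 142. These changes follow from fewer or more miRNAs passing by construction. Library totals gave 7 and 7, totals without miR-122 gave 11 (miR-497 added) and 7, DESeq2 size factors and thinned counts 10 and 10 each, and keeping repeated names 11 (miR-339-5p added) and 10. No ratio of the 20 miRNAs or of the 6 just outside the threshold changed sign under the alternatives for scaling, thinning or names. No paired analysis was possible because each breed has 1 library, and for the same reason none could be left out. Depth limits miR-1468, miR-20b, miR-299 and miR-184, each with under 100 counts in at least 1 library.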

Other observations

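Below the minimum of 10 mean CPM, 10 miRNAs lay past 2-fold above both domestic libraries and 3 below both. They were named after their values were seen. With them, 20 were higher and 13 lower among 317 miRNAs with a count, beside 10 and 10 (4.83% each) among the 207 compared. Several rest on few domestic counts, so nothing is read from 10 against 3. The neuronal miR-124a had 1 count in Enshi black, 0 in Large White and 81 in the wild boar, or 9.61 CPM there. That is 89.3-fold (15.6 to 3568) above Enshi black, and 18.16-fold the 0.529 CPM that 3 counts are worth in Large White. The latter is no lower bound, as the exact interval of the ratio over Large White begins at 14.4-fold. miR-382 (60, 17 and 120 counts in Enshi black, Large White and the wild boar), miR-432-5p (27, 13 and 78), miR-323 (23, 3 and 48) and miR-411 (13, 2 and 29) belong to the DLK1-DIO3 region described above. The others on the high side were miR-504, miR-1296-5p, miR-664-3p, miR-551a and miR-224, with 118, 89, 41, 43 and 25 counts in the wild boar library. On the low side were miR-106a, miR-374b-3p and miR-7137-3p, with 17, 18 and 16 counts there.

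Arm use also differed at precursors whose miRNAs were not among the 20. The miR-542-5p share was 30.8% (29.7 to 31.9) in Enshi black, 13.6% (12.8 to 14.5) in Large White and 49.0% (47.7 to 50.3) in the wild boar. That of miR-455-5p was 31.2% (28.7 to 33.7), 33.2% (29.9 to 36.6) and 18.6% (16.7 to 20.7). With 1 library per breed, the spread of an arm share between animals is unknown.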
